A study of Mus musculus with 15 samples.

Results

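Imprinted genes are expressed mainly from the copy inherited from 1 parent. The 33 described here are those listed by name as imprinted genes outside the Dlk1-Dio3 cluster, and all 33 were found among the 24831 gene names of the deposited table, with 92 transcripts. Hypothalami of outbred CD-1 mice were taken at postnatal day 15 for RNA sequencing, in a series whose title concerns thyroid hormone effects that reach the F2 generation. The groups PGM, PGF, HM, HF and Control held 3 samples each, named by these codes in the labels, which state no further genotype, treatment or lineage. Each value is the authors' mean RPKM (a read count scaled to transcript length and to library size) of a group, so no SD, test or replicate check exists for any difference below.

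The silent copy of an imprinted gene is usually marked by DNA methylation at a nearby control region, which is laid down in the egg or the sperm and kept through development. Imprinted genes lie in clusters in which paternally and maternally expressed genes can share 1 control region. Many of them act on fetal growth, and several, such as Peg3, Magel2, Nnat and Asb4, are known for their expression in hypothalamic neurons. RPKM does not tell the parental copies apart, so the levels below say nothing on whether imprinting itself differed.

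A gene's level is the median of its transcripts, and 31 of the 33 members averaged 1 RPKM or more across the 5 groups, as did 17481 of all gene names (the kept genes). The other members, both in the Kcnq1 cluster, were Phlda2, which restrains placental growth and was at most 0.04 RPKM in every group, and Slc22a18, a transporter gene with 0.57 RPKM in PGM, 0.85 in PGF, 0.70 in HM, 0.76 in HF and 0.85 in Control. Levels of the 31 spanned a wide range. Nap1l5, of the nucleosome assembly protein family, had the highest level among them, a mean of 1432 RPKM over the groups, which placed it at the 99.7th percentile of the kept genes. Nnat (1126 RPKM), Ndn (1033 RPKM), Gnas (708 RPKM), Snrpn (701 RPKM), Impact (629 RPKM) and Peg3 (574 RPKM) were also above the 98th percentile, while Peg12 had the lowest level of the 31, 1.44 RPKM.

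A difference is the log2(mean RPKM + 0.5) in a group less that in Control, or in the other group named, and a gene was counted when the difference reached 1.5-fold, a log2 difference of 0.585. In PGM 7 of the 31 members were counted as lower than Control and none as higher, where 2.29% of all kept genes were lower, 2.35% higher and 4.64% either. They were Igf2, H19, Kcnq1ot1, Zim1, Asb4, Mest and Plagl1. In PGF 5 of these, all but Igf2 and Plagl1, were lower and none higher, beside 1.9% of all kept genes lower, 2.16% higher and 4.06% either. In HM 2 were lower, Igf2 and Mest, and none higher, beside 0.87% lower, 0.675% higher and 1.54% either. In HF none was counted, beside 0.177% lower, 0.658% higher and 0.835% either. The members' median difference was -0.21 in PGM and -0.25 in PGF, and -0.11 in HM and -0.02 in HF, beside medians of 0.005, -0.03, -0.03 and 0.02 over all kept genes. Values below Control, of any size, were seen for 28 members in PGM (48.8% of all genes), 27 in PGF (55.6%), 28 in HM (59.9%) and 20 in HF (41.1%). These 4 comparisons share the same Control samples, so they are not separate evidence.

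**Figure D1:**
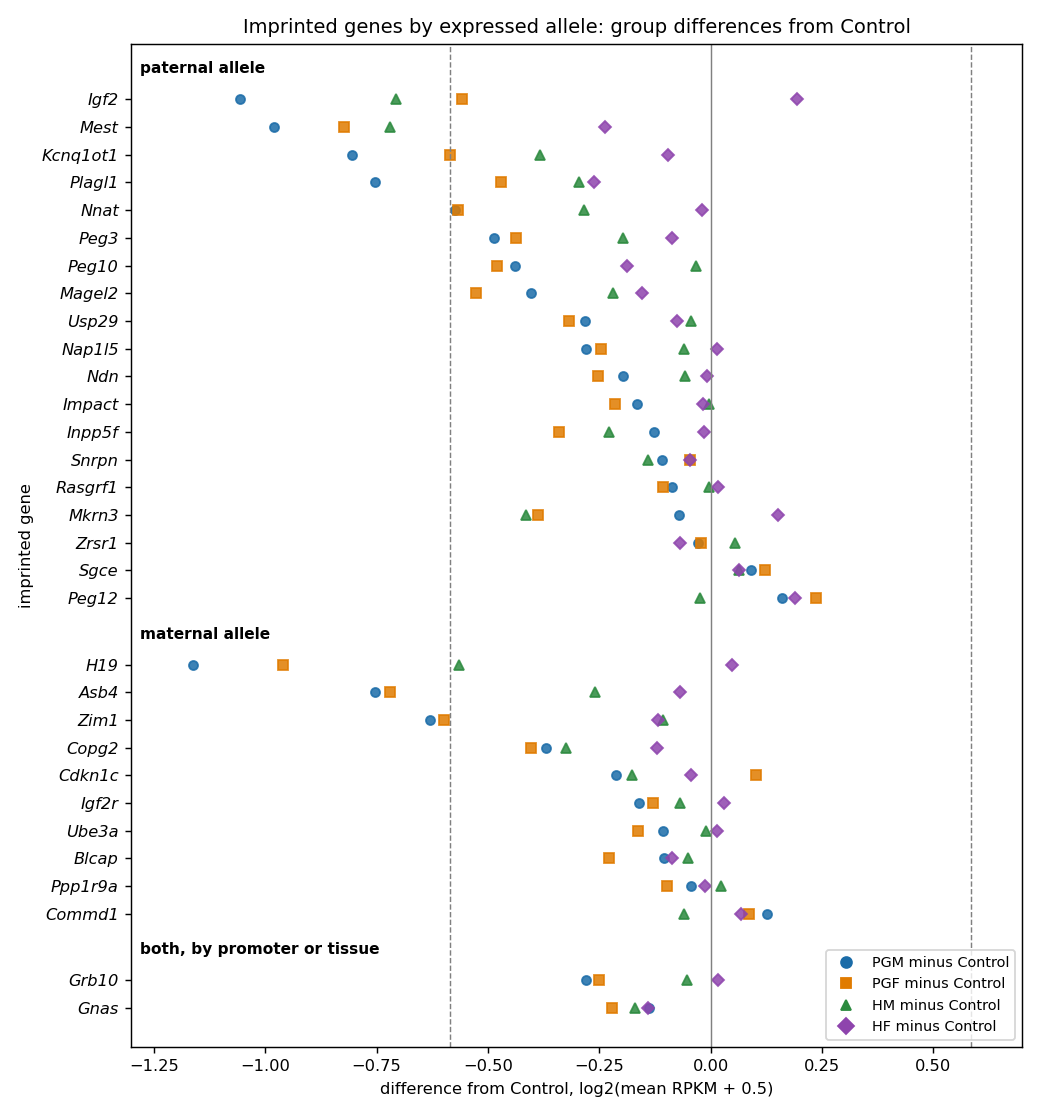
Difference of each group from Control in log2(mean RPKM + 0.5) for the 31 members with at least 1 RPKM, sorted by expressed parental allele, with 1 point per group and dashed lines at 1.5-fold. H19, Igf2 and Mest lie farthest to the left in PGM, at -1.16, -1.06 and -0.98, and no point reaches the right dashed line.

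Across the 5 groups, 13 of the 31 members had their lowest mean in PGM, 12 in PGF, 4 in HM, 1 in HF and 1 in Control. Among all kept genes the lowest mean was in PGM for 18.1%, in PGF for 27.9%, in HM for 22.0%, in HF for 8.82% and in Control for 23.3%. The highest mean was in Control for 17 members and in HF for 8, against 25.0% and 24.7% of all kept genes.

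The parental origin of the expressed copy divided the members into 19 paternally expressed genes, 10 maternally expressed genes and 2 genes, Grb10 and Gnas, whose allele depends on promoter or tissue. In PGM the paternally expressed genes had a median difference of -0.28 with 17 of 19 below Control, and the maternally expressed genes a median of -0.19 with 9 of 10 below. In PGF the medians were -0.34 with 17 of 19 below and -0.20 with 8 of 10 below. In HM they were -0.14 and -0.09, and in HF -0.02 and -0.03. Members counted at 1.5-fold, all lower, were 4 paternally and 3 maternally expressed in PGM and 2 and 3 in PGF. In HM they were 2 paternally and 0 maternally expressed. Of all kept genes 2.29% were lower in PGM, 1.9% in PGF and 0.87% in HM. The allele assignments are general knowledge of mouse imprinting, in which Ppp1r9a, Copg2, Blcap, Commd1 and Igf2r are monoallelic or biased only in some tissues. Igf2 is grouped as paternally expressed although both copies are active in the choroid plexus and meninges.

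Igf2 and H19 lie in 1 cluster on chromosome 7 (142575529 to 142666816 in GRCm38) and share 1 control region, in most tissues with Igf2 expressed from the paternal and H19 from the maternal copy. Igf2 encodes a fetal growth factor, and in mouse brain it is known as a product of the choroid plexus and the meninges, where both of its copies are active. It was at 58.5 RPKM in PGM, 82.9 in PGF, 74.8 in HM, 140.0 in HF and 122 in Control. PGM was thus at 47.9% of Control and HM at 61.2%, while HF was above it at 115%. The noncoding RNA H19 was at 2.93 RPKM in PGM, 3.45 in PGF, 4.69 in HM, 7.44 in HF and 7.18 in Control. Both genes were therefore lower in PGM, PGF and HM, with log2 differences of -1.06, -0.56 and -0.71 for Igf2 and -1.16, -0.96 and -0.57 for H19. In HF they differed from Control by 0.19 and 0.05. The ratio of H19 to Igf2, both in RPKM, was 0.050 in PGM, 0.042 in PGF, 0.063 in HM, 0.053 in HF and 0.059 in Control. All 3 Igf2 transcripts in the table gave nearly the same difference, between -1.06 and -1.055 in PGM.

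Mest, which encodes a protein of the hydrolase fold family and is paternally expressed (chromosome 6, 30723547 to 30748465), was at 87.8 RPKM in PGM, 98.05 in PGF, 105 in HM, 147 in HF and 174 in Control. It was the only member counted as lower than Control in all of PGM, PGF and HM, at -0.98, -0.82 and -0.72. This depended on the 0.5 added to RPKM. With 0.1 added instead, H19 also passed 1.5-fold in those groups, at -1.26, -1.04 and -0.60. For Mest, HF, at -0.24, lay between those groups and Control. Plagl1, a zinc finger transcription factor known to regulate other imprinted genes (chromosome 10, 13060504 to 13131694), followed the same order of groups, with 10.6 RPKM in PGM, 13.1 in PGF, 14.8 in HM, 15.2 in HF and 18.3 in Control. Its difference was -0.75 in PGM and -0.47 in PGF, and -0.30 in HM and -0.26 in HF. Kcnq1ot1, the paternally expressed noncoding RNA that silences its neighbours in cis (chromosome 7, 143203458 to 143296549), was at 3.19 RPKM in PGM, 3.8 in PGF, 4.45 in HM, 5.54 in HF and 5.95 in Control. Its difference was -0.81 in PGM and exactly 1.5-fold in PGF, and -0.38 in HM and -0.09 in HF. Cdkn1c, the cell cycle inhibitor that this RNA silences on the paternal copy, was at 11.9 RPKM in PGM, 14.9 in PGF, 12.2 in HM, 13.4 in HF and 13.9 in Control, all within 1.5-fold.

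**Figure D2:**
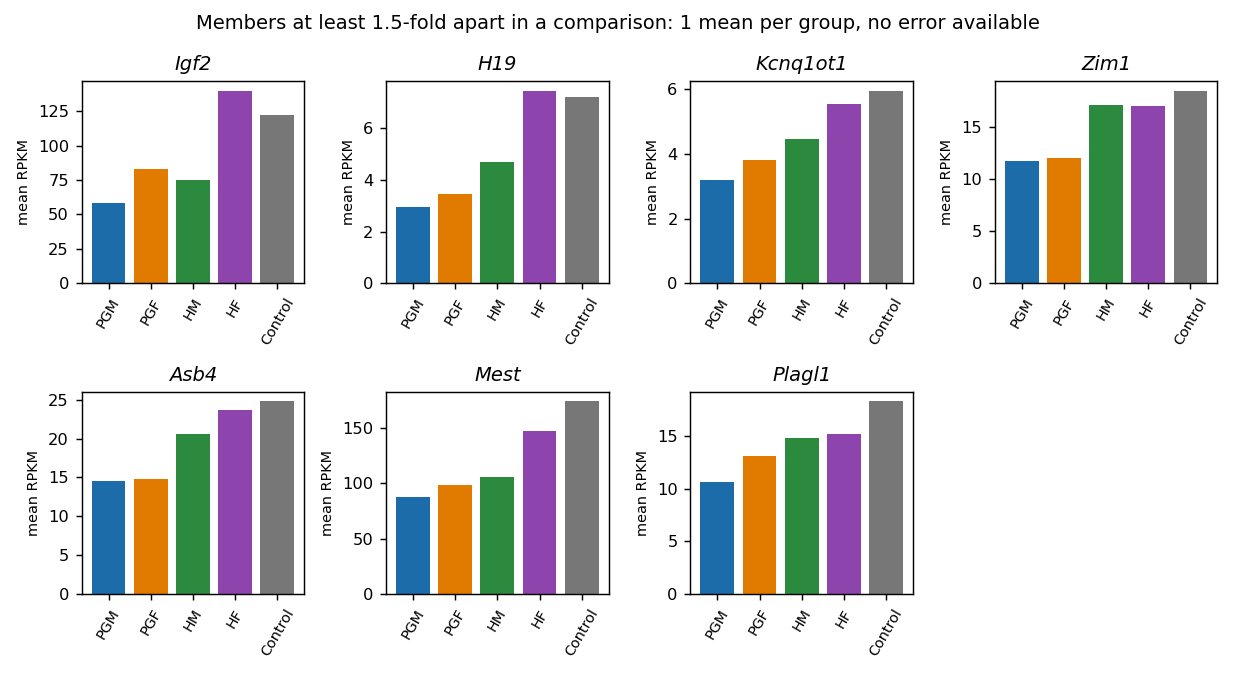
Mean RPKM per group (bars, linear axis from 0) of the 7 members that reached 1.5-fold in a comparison. Each bar is 1 authors' mean of a group, and no error is available. Igf2 is at 58.5 RPKM in PGM and 122 in Control. All members shown except Igf2 are lower in PGM and PGF than in the other groups.

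Promoter sequences of 4 of these 7 members are shown because their windows hold the motif TGCCGC, the sequence that the zinc finger protein ZFP57 binds when it is methylated at imprinting control regions. The windows run from 250 bases before to 50 bases after a start site, are taken from RefSeq (GRCm38.p6) and are written 5′ to 3′ on the gene's strand, with the motif or its reverse complement GCGGCA in capitals. For Igf2 and Mest only 1 of several start sites is given, and the other Igf2 windows held no motif. The windows of Asb4 and Kcnq1ot1 held none either, and H19 had no window to search.
Igf2 chr7:142661222-142661521, minus strand: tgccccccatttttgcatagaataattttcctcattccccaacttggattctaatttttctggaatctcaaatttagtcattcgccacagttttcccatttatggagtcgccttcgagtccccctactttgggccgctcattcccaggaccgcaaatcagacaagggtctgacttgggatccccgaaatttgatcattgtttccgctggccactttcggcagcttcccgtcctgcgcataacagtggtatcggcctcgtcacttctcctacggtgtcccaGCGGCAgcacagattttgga
Mest chr6:30737800-30738099, plus strand: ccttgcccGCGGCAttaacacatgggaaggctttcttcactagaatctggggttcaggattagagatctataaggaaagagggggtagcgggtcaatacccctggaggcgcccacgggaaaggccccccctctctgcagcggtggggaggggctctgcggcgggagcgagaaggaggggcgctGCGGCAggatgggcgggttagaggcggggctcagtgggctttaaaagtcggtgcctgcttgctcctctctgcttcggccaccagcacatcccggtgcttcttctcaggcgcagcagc
Plagl1 chr10:13090582-13090881, plus strand: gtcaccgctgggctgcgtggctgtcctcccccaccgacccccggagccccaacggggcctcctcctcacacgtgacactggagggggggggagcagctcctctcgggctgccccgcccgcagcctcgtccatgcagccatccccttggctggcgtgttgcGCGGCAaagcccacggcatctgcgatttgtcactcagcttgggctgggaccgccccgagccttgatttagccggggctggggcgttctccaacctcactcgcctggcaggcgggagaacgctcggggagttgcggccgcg
Zim1 chr7:6696383-6696682, minus strand: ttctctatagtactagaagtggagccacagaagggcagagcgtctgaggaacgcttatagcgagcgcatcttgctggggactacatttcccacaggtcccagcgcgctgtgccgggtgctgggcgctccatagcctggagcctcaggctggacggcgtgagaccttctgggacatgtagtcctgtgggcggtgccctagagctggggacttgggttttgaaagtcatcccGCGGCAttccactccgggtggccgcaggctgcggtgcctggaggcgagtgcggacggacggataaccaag
The window of Mest holds 2 matches and those of Igf2, Plagl1 and Zim1 hold 1 each. Of 43 windows for 28 members, 11 held the motif on either strand, which is 25.6%, with 2 of the 11 being overlapping starts of Mest. Over all 32851 RefSeq windows the share was 11.6%. The dinucleotide CG occurred a median of 16 times in a member's window and 7 times in all windows. A match is a description of the letters and not a bound site.

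The Peg3 cluster lies near the other end of chromosome 7 (6671269 to 6967219). Peg3, a zinc finger protein known for its part in maternal behaviour, was at 480.1 RPKM in PGM, 497 in PGF, 587 in HM, 634 in HF and 672 in Control. Usp29, a ubiquitin-specific protease gene read from the opposite strand with a start site 147 bases away, was at 19.3 RPKM in PGM, 18.8 in PGF, 22.9 in HM, 22.4 in HF and 23.6 in Control. Zim1, the maternally expressed zinc finger gene of the cluster, was at 11.7 RPKM in PGM, 12.0 in PGF, 17.1 in HM, 16.95 in HF and 18.4 in Control. All 3 were lower in PGM and PGF than in the remaining groups, whichever parental copy they are expressed from. The differences from Control were -0.49 and -0.44 for Peg3, -0.28 and -0.32 for Usp29, and -0.63 and -0.60 for Zim1. In HM they were -0.20, -0.04 and -0.11.

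Neighbours in the Peg10 and Sgce cluster on chromosome 6 (4674350 to 5433022) differed unequally. Peg10, a gene derived from a retrotransposon, was at 98.1 RPKM in PGM, 95.4 in PGF, 130.3 in HM, 117 in HF and 133 in Control. Sgce, the gene of epsilon-sarcoglycan, starts 99 bases from Peg10 on the opposite strand and is also paternally expressed. It was at 31.6 RPKM in PGM, 32.3 in PGF, 31.0 in HM, 31.0 in HF and 29.6 in Control. The ratio of Peg10 to Sgce was accordingly 3.11 in PGM, 2.95 in PGF, 4.2 in HM, 3.77 in HF and 4.5 in Control. Asb4, an adaptor of ubiquitin ligases known from hypothalamic neurons that control energy balance, was at 14.5 RPKM in PGM, 14.9 in PGF, 20.6 in HM, 23.6 in HF and 24.8 in Control, which is 58.5% of Control in PGM and 59.9% in PGF. Ppp1r9a, the neurabin gene between them, stayed between 70.0 RPKM in PGF and 76.3 in HM, with 74.99 in Control.

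Overlapping gene pairs bring a limit of the counting. Mest and Copg2, the gene of a coatomer subunit, share 912 exon bases on opposite strands in GENCODE M21, and the use of strand in counting was not given in the sources used here. Copg2 was at 115 RPKM in PGM, 112 in PGF, 118 in HM, 136 in HF and 148 in Control, a smaller difference than that of Mest in each group. The most abundant Copg2 transcript, uc012ejn.1, differed by -0.55 in PGM, -0.56 in PGF and -0.44 in HM. These differences were larger than those of the other Copg2 transcripts but smaller than those of Mest. Nnat, which encodes the membrane proteolipid neuronatin, lies inside Blcap on the opposite strand with no shared exon bases. Nnat was at 911 RPKM in PGM, 915 in PGF, 1113 in HM, 1337 in HF and 1355 in Control, and the differences of -0.57 in both PGM and PGF were just under 1.5-fold. Blcap was at 155 RPKM in PGM, 142 in PGF, 161 in HM, 157 in HF and 167 in Control. Zrsr1, a splicing factor retrogene, and Commd1, the gene around it, share 412 exon bases and differed from Control by at most 0.13 in any group.

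**Figure D3:**
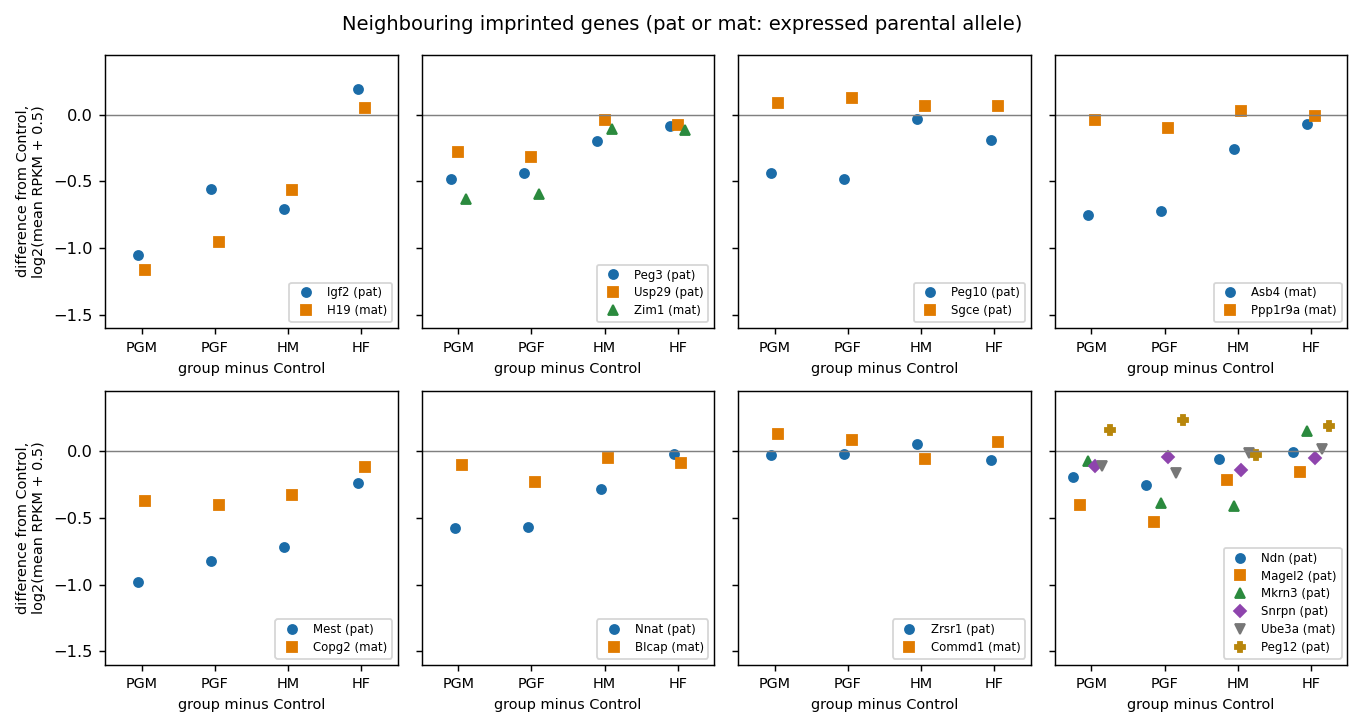
Differences from Control in log2(mean RPKM + 0.5) for 8 sets of neighbouring imprinted genes, with 1 point per gene and group and the expressed parental copy in the legend. Peg10 and Asb4 lie below their neighbours Sgce and Ppp1r9a in PGM and PGF, whereas Igf2 and H19 lie below 0 together in PGM, PGF and HM.

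Members in the domain of the Prader-Willi and Angelman syndromes on chromosome 7 (59228750 to 62464510) were all within 1.5-fold of Control in each group by their median transcript. Magel2, which encodes a MAGE family protein of hypothalamic neurons, was at 10.4 RPKM in PGM, 9.53 in PGF, 11.9 in HM, 12.5 in HF and 14.0 in Control, a difference of -0.40 in PGM and -0.53 in PGF. Of its 2 transcripts, uc009hfg.1 passed 1.5-fold in PGF at -0.65, with 5.47 RPKM against 8.87 in Control. The other Magel2 transcript differed by -0.47 in PGF. Ndn, of the same protein family, was at 965 RPKM in PGM, 928 in PGF, 1063 in HM, 1100.3 in HF and 1106 in Control. Mkrn3, a ring finger gene whose loss in humans brings early puberty, had 9.01 RPKM in PGM, 7.14 in PGF, 7.0 in HM, 10.6 in HF and 9.49 in Control. Its low groups were PGF and HM, unlike Ndn and Magel2, whose low groups were PGM and PGF. Snrpn, which encodes a spliceosomal protein of neurons, differed by -0.11 in PGM and -0.05 in PGF, and -0.14 in HM and -0.05 in HF. Ube3a, the ubiquitin ligase gene silenced on the paternal copy in neurons, was at 86.4 RPKM in PGM, 83.1 in PGF, 92.55 in HM, 94.1 in HF and 93.2 in Control. Peg12, near the 1 RPKM limit, was at 1.5 RPKM in PGM, 1.61 in PGF, 1.26 in HM, 1.54 in HF and 1.29 in Control.

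The remaining members have no other listed member as a neighbour, and none reached 1.5-fold. Grb10, an adaptor that restrains insulin and growth factor signalling, was at 83.7 RPKM in PGM, 85.4 in PGF, 98.0 in HM, 102.9 in HF and 102 in Control. Nap1l5 followed the same order with 1273 RPKM in PGM, 1302 in PGF, 1481 in HM, 1559 in HF and 1544 in Control. Impact, a regulator of translational control by Gcn2 (chromosome 18, 12955852 to 12992950), was at 592 RPKM in PGM, 572 in PGF, 662 in HM, 655 in HF and 664 in Control. In each of these 3 genes PGM and PGF lay below HM, HF and Control. Igf2r, the receptor that clears Igf2, differed from Control by -0.16 in PGM and -0.13 in PGF, and -0.07 in HM and 0.03 in HF. Rasgrf1, an exchange factor for Ras, differed by at most -0.11, in PGF. Inpp5f, a phosphoinositide phosphatase gene, was lowest in PGF with 151 RPKM, beside 175 in PGM, 164 in HM, 189.7 in HF and 192 in Control.

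Where transcripts of 1 gene differed at least 5-fold in level, the median could hide them. Gnas, the gene of the stimulatory G protein subunit with several promoters of different imprinting, had 11 transcripts with means between 10.7 and 1868 RPKM over the groups. The least abundant, uc008oet.1, was at 8.92 RPKM in PGM, 8.15 in PGF, 9.82 in HM, 13.01 in HF and 13.6 in Control, a difference of -0.58 in PGM and -0.70 in PGF. By the median of the Gnas transcripts the differences were -0.14 and -0.22. Another, uc008oex.1, had 101 RPKM in PGM, 78.9 in PGF, 90.4 in HM, 100.6 in HF and 111 in Control. The promoters of these transcripts could not be assigned. Of 5 Inpp5f transcripts, 1 had a mean of 12.8 RPKM and differed by -0.11 in PGF, while the other 4 had means between 129.8 and 204 RPKM and differed by -0.29 to -0.34. All 5 were grouped as 1 paternally expressed gene, although their promoters could not be assigned either. The 4 transcripts of Usp29 and the 3 of Rasgrf1 differed in level but had like differences, from -0.40 to -0.30 and from -0.15 to -0.09 in PGF.

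**Figure D4:**
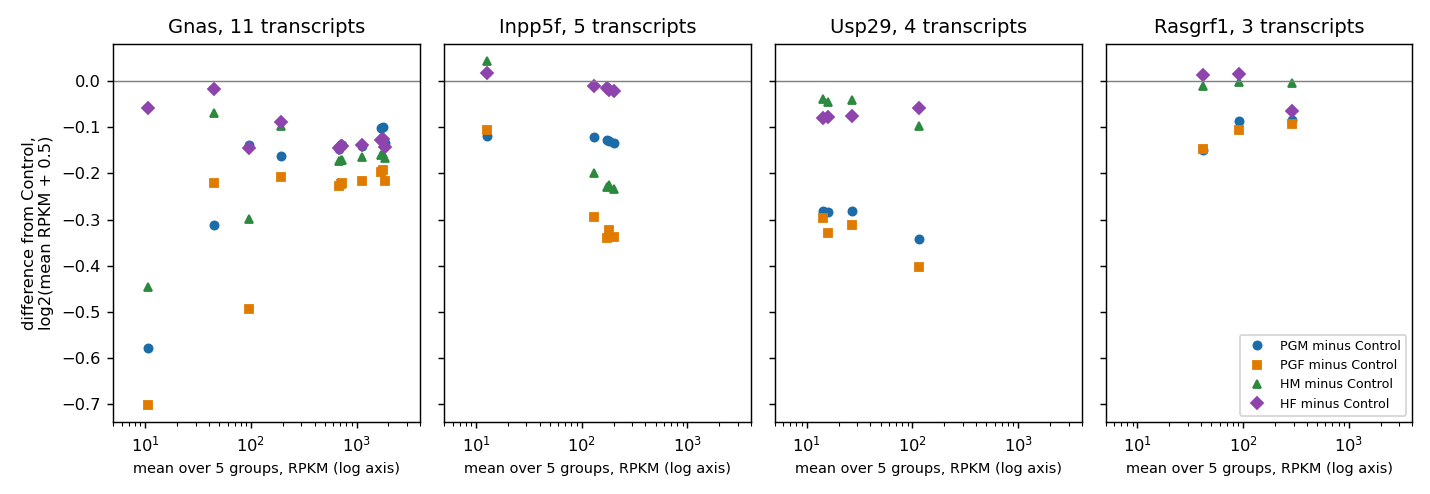
Level (mean RPKM over the 5 groups, log axis) and difference from Control in log2(mean RPKM + 0.5) of each transcript of the 4 members whose transcripts differ at least 5-fold in level, with 1 point per transcript and group. The Gnas transcript of the lowest level has the largest differences, -0.70 in PGF and -0.58 in PGM, and the Inpp5f transcript of the lowest level differs less in PGF than the other 4.

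The members were also compared between PGM and PGF and between HM and HF. PGM against PGF had a median difference of -0.01, beside 0.03 over all kept genes, with 17 of 31 members below 0 (37.4% of all genes). None of the 31 was counted at 1.5-fold, where 0.555% of all genes were lower, 0.435% higher and 0.99% either. Igf2 had the largest difference, -0.50, with 58.5 RPKM in PGM against 82.9 in PGF. In HM against HF the median was -0.07, beside -0.05 over all kept genes, with 23 of 31 members below 0 (68.6% of all genes). In this comparison 2 members were counted, both lower, where 1.31% of all genes were lower, 0.366% higher and 1.68% either. They were Igf2 with 74.8 RPKM in HM against 140.0 in HF and H19 with 4.69 against 7.44, differences of -0.90 and -0.61. Mkrn3 and Mest followed with -0.56 and -0.48.

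Markers of cell types and neighbouring tissues differed between the same groups, and their part in the members' differences was not tested. In bulk tissue fewer cells of a type and less RNA per cell cannot be told apart. All 10 meningeal markers were lower in PGM, PGF and HM, with median differences of -0.92, -0.55 and -0.75, and 9 of 10 were higher in HF with a median of 0.21. Their summed level was 83.4 RPKM in PGM, 109 in PGF, 102 in HM, 173 in HF and 157 in Control, and none was at 0 in any group. Igf2, at -1.06, -0.56, -0.71 and 0.19, lay close to those medians in every group. H19, at -1.16, -0.96, -0.57 and 0.05, and Mest, at -0.98, -0.82, -0.72 and -0.24, lay farthest from them in PGF (H19) and in HF (Mest), where the sign of Mest was opposite to that of the meningeal median. Markers of hypothalamic neurons were lower in 18 of 20 in PGM, 17 of 20 in PGF, 15 of 20 in HM and 16 of 20 in HF, with medians of -0.71, -0.70, -0.23 and -0.14. None of the 20 was at 0 in any group, and their summed level was 1606 RPKM in PGM, 1823 in PGF, 1981 in HM, 1959 in HF and 2177 in Control. Pomc, the precursor gene of melanocortins that the pituitary also expresses, was at 16.1 RPKM in PGM, 369.7 in PGF, 22.4 in HM, 20.5 in HF and 24.3 in Control. Without Pomc, which was left out after its values were seen, the sums were 1590.0 RPKM in PGM, 1454 in PGF, 1959 in HM, 1938 in HF and 2153 in Control, so that PGF was then the lowest, and the medians were -0.72, -0.74, -0.24 and -0.13. Asb4, at -0.75, -0.72, -0.26 and -0.07, lay close to the medians over all 20, and Zim1, Nnat, Peg3 and Peg10 had smaller differences of the same kind in PGM and PGF.

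**Figure D5:**
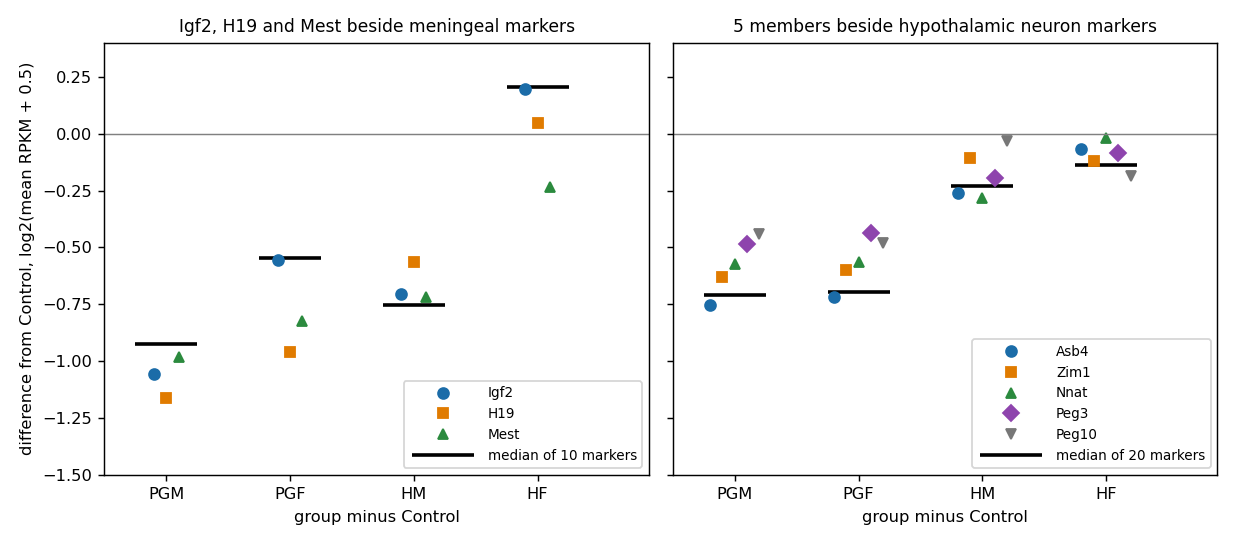
Differences from Control in log2(mean RPKM + 0.5) of members (points) beside the median of a marker list (black bars), for Igf2, H19 and Mest with 10 meningeal markers and for 5 members with 20 hypothalamic neuron markers. The members were picked for display after their values were seen, and the choroid plexus list is not drawn. The meningeal median and Igf2 are both below 0 in PGM, PGF and HM and above 0 in HF, at 0.21 and 0.19.

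Markers of other tissues differed too. Vessel markers were below Control in 15 of 15 in PGM, 10 of 15 in PGF, 13 of 15 in HM and 5 of 15 in HF, with medians of -0.21, -0.06, -0.21 and 0.04. The erythroid list was below Control in 4 of 4 in PGM, PGF, HM and HF, with medians of -0.90, -0.47, -1.21 and -0.23. Myelin genes were higher in 10 of 10 in each group, with medians of 0.68, 1.06, 0.50 and 0.09, and thalamic markers had medians of 1.07, 0.82, 0.37 and -0.05. The cortex and striatum list had medians of 0.17, 0.32, 0.16 and 0.21, and the pituitary list -0.16, 3.52, -0.02 and -1.21. The Y-linked gene Ddx3y was at 30.4 RPKM in PGM, 32.0 in PGF, 16.75 in HM, 15.9 in HF and 2.52 in Control, and Xist at 14.2, 11.6, 26.4, 35.4 and 44.0 RPKM in the same groups. The share of males in a group and the group itself cannot be told apart in these means.

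Genes related to the members were read from 3 lists. Of 38 other genes reported as imprinted in mouse tissues, 3 were counted lower and 1 higher in PGM, 2 lower and 1 higher in PGF, none in HM and 2 higher in HF, where 4.64%, 4.06%, 1.54% and 0.835% of all kept genes were counted in either direction. The list's medians were -0.09, -0.05, -0.05 and -0.004. This list shares Dcn with the meningeal markers. Zdbf2, a paternally expressed gene known from hypothalamic neurons, was at 34.3 RPKM in PGM, 34.4 in PGF, 46.4 in HM, 56.4 in HF and 68.2 in Control. Calcr, the calcitonin receptor gene near Asb4, was at 20.1 RPKM in PGM, 18.2 in PGF, 25.6 in HM, 28.4 in HF and 30.5 in Control. Th, which encodes the first enzyme of dopamine synthesis, was at 48.1 RPKM in PGM, 82.5 in PGF, 74.3 in HM, 103 in HF and 62.0 in Control. The X-linked gene Xlr3b, expressed from the maternal X, was at 11.4 RPKM in PGM, 10.04 in PGF, 6.61 in HM, 9.30 in HF and 5.07 in Control, above Control in every group.

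None of 21 genes listed for a link to methylation imprints was counted at 1.5-fold in any group against Control. Not all of the 21 set or keep such imprints. Of them 17 were lower in PGM and 18 in PGF, and 19 in HM and 12 in HF. Of all kept genes 48.8% were below Control in PGM and 55.6% in PGF, and 59.9% were below it in HM and 41.1% in HF. Tet1, which oxidises methylated cytosine, was at 17.9 RPKM in PGM, 16.4 in PGF, 17.0 in HM, 22.45 in HF and 24.2 in Control. Its relative Tet3 was at 14.1 RPKM in PGM, 13.01 in PGF, 13.1 in HM, 16.5 in HF and 18.7 in Control, and Dnmt3a, a DNA methyltransferase, at 83.7, 73.1, 69.8, 92.6 and 95.7 RPKM. Nlrp5, an oocyte gene, had about 1 RPKM in each group. Of 13 genes of the insulin-like growth factor axis, 11 were lower in PGM and 9 in PGF, and 10 in HM and 3 in HF, to be read beside the same shares of all kept genes. Igfbp6, a binding protein with preference for Igf2, was at 3.16 RPKM in PGM, 4.53 in PGF, 3.91 in HM, 7.40 in HF and 6.64 in Control. Igfbp2 was at 63.85 RPKM in PGM, 86.9 in PGF, 59.8 in HM, 113 in HF and 88.5 in Control. Both were below Control in PGM, PGF and HM and above it in HF, as Igf2 was. For Igfbp2 the difference in PGF was only -0.03, the same as the median over all kept genes. Igfbp4 differed most in HM, by -0.48, and Igf1 was the member of the list farthest above Control, by 0.40 in PGM.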

How the data were processed

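RNA of 15 hypothalamus samples was sequenced, 3 per group, and groups were taken from the sample titles. The deposited table gives, per the file headers, RPKM averaged by the authors over each group, 1 value per transcript with UCSC identifiers, and 1 inner row of column names was dropped, leaving 49404. The submitters' processing notes name FastQC (read quality), Novoalign 2.08 (an aligner) and the build mm10, and the counting program and strand handling are stated neither there nor in the headers, and depth is unknown. No sample values were used, so limma was not applicable, there is no test, SD or interval, and only group means are described.

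The median transcript stood for each gene name, genes averaging 1 RPKM or more were kept (70.4%), and differences were taken on log2(RPKM + 0.5), which understates differences of low genes. All members may be named. From the 3 related lists the 4 genes with the largest difference from Control were named. Members, lists and alleles were chosen with earlier results of these data known. Positions come from GENCODE M21 (GRCm38), sequences from RefSeq (GRCm38.p6). Alternatives were pseudocounts of 0.1 and 1, no filter or 3 RPKM, upper quartile scaling, the sum or the most abundant transcript, a 2-fold threshold, and another group in place of Control. Code was tested on simulated data. Python 3.11.15, numpy 2.4.6, pandas 2.3.3 and matplotlib 3.10.9 were used.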

Additional observations from a re-analysis of the deposited data

How the results depend on the processing

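No paired analysis was possible because the table holds 1 mean per group, and leaving out samples in turn was not run for the same reason. Counts of members at 1.5-fold changed by more than 1.5 times under few of the alternatives. Smaller changes came with a pseudocount of 0.1, with 3 in HM (2.22% of all kept genes counted) and 3 in HM against HF (2.41%). Upper quartile scaling gave 8 in PGM (4.75%) and 4 in PGF (4.01%). With a pseudocount of 1 the count was 3 in PGF against Control, where Zim1 and Kcnq1ot1 lay at -0.58 and -0.53 (3.21% of all kept genes counted), and 1 in HM against HF, where H19 lay at -0.57 (1.22%). At a 2-fold threshold the counts were 2 in PGM (Igf2 and H19), 0 in PGF, 0 in HM and 0 in HM against HF, beside 0.829%, 0.847%, 0.217% and 0.263% of all kept genes. With HF in place of Control the medians and counts for PGM, PGF and HM kept their direction and stayed within 0.1 or 1.5 times. With PGM in place of Control the median for HF reversed to 0.21 and 5 members were counted higher (3.95% of all kept genes in either direction). This is the comparison of PGM with HF in place of Control, read the other way round. Of 1420 recomputed values of single members 1359 moved by less than 0.1, 61 by more, and none that had reached 1.5-fold changed sign. Of the 61, 30 came with HF and 26 with PGM in place of Control, which is another comparison and not a processing choice. The PGM replacement was applied to HF only, where no member had reached 1.5-fold, so it could not show such a change of sign. Depth is unknown, so precision at low levels, such as those of H19, Kcnq1ot1 and Peg12, cannot be stated.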

Other observations

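Noncoding RNAs from the domain of the Prader-Willi and Angelman syndromes were picked after their values were seen. Ipw, a noncoding RNA that is paternally expressed, was at 429 RPKM in PGM, 467 in PGF, 578 in HM, 658 in HF and 529.6 in Control, so that PGM and PGF were below Control while HM and HF were above it. Snord116, a small nucleolar RNA of the same domain, was at 2202 RPKM in PGM, 2277 in PGF, 2392 in HM, 2416 in HF and 2291 in Control. The microRNA hairpin Mir344g, which lies between Snrpn and Ndn on chromosome 7 (61982289 to 61982359 in GRCm38.p6), was at 1.29 RPKM in PGM, 1.84 in PGF, 2.06 in HM, 3.84 in HF and 4.73 in Control. Its difference of -1.55 in PGM was larger than that of any of the 31 members, but it is a short hairpin at a low level. Depth is unknown, so the precision of this value cannot be stated either. The share of all kept genes with so large a difference was not computed.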
